A study of Mus musculus with 6 samples.

Results

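The 8 genes described here encode parts of the neuronal voltage-gated sodium channel. They are the pore-forming alpha subunits *Scn1a*, *Scn2a* and *Scn8a*, the beta subunits *Scn2b*, *Scn3b* and *Scn4b*, and the fibroblast growth factor homologous factors *Fgf12* and *Fgf14*. They were taken by gene symbol from the 53746 genes of the deposited count table, with the fall of *Scn4b* in these data already known, and all 8 were among the 16961 genes that had enough counts to be tested. Between the genotypes, *Scn4b* was the gene that differed most. It fell 1.71-fold in Pcp2-cre cerebella, and the other 7 genes had log2 fold changes between -0.14 and 0.35.

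Messenger RNA was sequenced from whole cerebella of 3 N153SLSL/LSLPcp2-cre mice (Pcp2-cre below) and 3 N153SLSL/LSL mice (control), all 2 months of age. Mice of both genotypes carry the *Sting1* N153S knockin on both alleles behind a LoxP-Stop-LoxP cassette. Only the Pcp2-cre mice carry Cre, which the *Pcp2* promoter drives in Purkinje cells, so the controls hold the same alleles with the cassette in place. In each genotype mice 1 and 2 are labelled male and mouse 3 female. A level in whole tissue mixes Purkinje cells with all other cerebellar cells, and fewer cells of a type cannot be told apart from less RNA per cell.

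Voltage-gated sodium channels carry the inward current of the action potential. An alpha subunit forms the pore, and beta subunits, which are single-pass membrane proteins with an immunoglobulin-like domain, change its gating and its place in the membrane. Fibroblast growth factor homologous factors are not secreted. They bind the intracellular tail of the alpha subunit and shift its inactivation. Purkinje cells fire spontaneously, and part of the sodium current that lets them do so is a resurgent current that flows as the membrane repolarizes.

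Total counts per mouse were between 6733178 and 10178218, and 3 counts, taken as the limit of detection, corresponded to 0.297 to 0.447 CPM, a limit that covers counting error only. CPM are counts scaled to library size. The scaling used TMM normalization. The engineered gene *Sting1* was higher in all 3 Pcp2-cre mice than in all 3 controls, as for 10.8% of all genes tested (log2 fold change 0.57, adjusted p = 3.59e-04 in the quasi-likelihood (QL) test of edgeR, used throughout). The counts do not separate its mutant from its normal transcript. In public single-cell data the paper found *Sting1* mRNA in microglia alone, with little or none in Purkinje cells. The 8 microglial genes summed to 125 to 132 CPM in controls and 347 to 384 CPM in Pcp2-cre mice. The part of microglial RNA in the rise of *Sting1* was not tested. Of lists of cell type genes, the Purkinje cell list was lower in Pcp2-cre mice in 10 of 10 genes at an adjusted p no higher than 0.05, and its median log2 fold change was -0.77. The summed level of these 10 genes was 7515 to 8250 CPM in controls and 4166 to 4620 CPM in Pcp2-cre mice. The 9 granule cell genes, markers of the most numerous cerebellar neuron, summed to 5861 to 6002 CPM and 6024 to 6254 CPM. Their median log2 fold change was 0.05, and of them *Neurod1* rose. Of the 9 genes of molecular layer interneurons, *Gad1* fell and the median log2 fold change was -0.03. In Pcp2-cre mice 7 of 8 microglial, 6 of 8 oligodendrocyte and 3 of 8 astrocyte genes rose at an adjusted p no higher than 0.05, and 2 astrocyte genes fell. Over all genes tested, 2.99% rose and 4.75% fell at this adjusted p. Choroid plexus genes set 2 libraries apart: the 8 of them summed to 805.5 and 1246 CPM in controls 1 and 2, to 32.5 CPM in control 3 and to 24.2 to 86.6 CPM in Pcp2-cre mice.

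A gene was called lower or higher in Pcp2-cre mice at the study's thresholds, an adjusted p (Benjamini-Hochberg) no higher than 0.05 together with a log2 fold change of 0.5 or more in either direction. Of the 8 genes 1 was called lower, against 1.79% of all genes tested, and 0 were called higher, against 1.37%. At an adjusted p no higher than 0.05 alone, 2 of 8 genes were lower, *Scn4b* and *Scn8a*, against 4.75% of all genes tested, and 0 were higher, against 2.99%. None of the 8 was higher at an unadjusted p under 0.05 or when called by DESeq2. In both directions together the share over all genes was 7.74%. Their median log2 fold change was -0.04, beside 0.0045 over all genes tested, and 5 of the 8 lay below 0, beside 48.7% of all genes.

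*Scn4b*, the gene called lower, and *Scn2b*, which was not called, stand close together in the genome. On the forward strand of chromosome 9 of GRCm39, *Scn2b* (ENSMUSG00000070304) runs from 45029080 to 45041368 and *Scn4b* (ENSMUSG00000046480) from 45049595 to 45065452, with 8.23 kb between them. The antisense RNA gene *Gm39327* reaches into this gap and overlaps 2.11% of the exon bases of *Scn4b*. The 250 bases before the start of the main transcript of each gene are shown because the pair are neighbours, and 1 of them was called. No annotated exon lies in either window.
Scn4b, chr9:45049345-45049594, forward strand: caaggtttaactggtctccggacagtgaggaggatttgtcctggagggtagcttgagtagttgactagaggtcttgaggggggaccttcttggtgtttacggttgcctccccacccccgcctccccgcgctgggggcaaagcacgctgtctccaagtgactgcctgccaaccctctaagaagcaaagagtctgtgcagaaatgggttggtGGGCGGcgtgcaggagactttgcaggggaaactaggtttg
Scn2b, chr9:45028830-45029079, forward strand: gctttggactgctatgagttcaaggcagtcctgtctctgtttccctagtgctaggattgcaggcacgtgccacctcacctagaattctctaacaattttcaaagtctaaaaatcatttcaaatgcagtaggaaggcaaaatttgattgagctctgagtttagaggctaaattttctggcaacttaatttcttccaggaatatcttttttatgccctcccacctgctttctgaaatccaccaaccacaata
The capitals mark the only match, on either strand, to the motifs searched, which were AGGTCA (the core motif of the orphan nuclear receptors of the ROR family), GGGCGG (the GC box), CCAAT and TATAAA. They were found in 11.2%, 48.3%, 35.9% and 7.08% of the 250-base windows before 13707 tested genes. The *Scn4b* window was 57.2% G and C with 8 CpG dinucleotides, and the *Scn2b* window was 40.8% G and C with 1. Over all windows the median was 56.8% G and C, with quartiles of 50.4% and 63.6%, and the median number of CpG dinucleotides was 12. No motif match in a window says only that these letters are not there.

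Among the alpha subunits, *Scn2a* had nearly equal means in the 2 genotypes, and *Scn8a* and *Scn1a* were each about 9% lower in Pcp2-cre cerebella, a difference that passed the test for *Scn8a* alone. *Scn8a* (ENSMUSG00000023033, chromosome 15, 100767739 to 100943819, forward strand) encodes the alpha subunit that carries much of the resurgent current of Purkinje cells. It had 447, 420.3 and 424 CPM in control mice 1, 2 and 3 and 380.2, 392 and 398 CPM in Pcp2-cre mice 1, 2 and 3. No Pcp2-cre mouse reached the lowest control, as for 11.4% of all genes tested. At -0.14, its log2 fold change (standard error 0.0396, adjusted p = 0.0279, edgeR QL test) was below the study's fold threshold. Its adjusted p was 0.151 without control 1, 0.166 without Pcp2-cre mouse 1 and 0.117 without Pcp2-cre mouse 2, and it was 0.073 with edgeR's likelihood ratio test. The FPKM table (fragments scaled to exon length and to library size) does not hold the same counts over 1 length per gene. The ratio of FPKM to CPM of *Scn8a* ran from 0.088 in control 2 to 0.112 in Pcp2-cre mouse 2, and among the 8 genes the largest ratio over mice was 1.09 to 1.78 times the smallest, widest for *Scn3b*. In FPKM the mean of *Scn8a* was 40.7 in control and 38.1 in Pcp2-cre mice, the groups overlapped, and the adjusted p was 0.735 with limma.

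*Scn1a* (ENSMUSG00000064329, chromosome 2, 66101122 to 66271572, reverse strand) encodes an alpha subunit of inhibitory neurons, Purkinje cells among them. Its control mice had 248, 245 and 222 CPM and its Pcp2-cre mice 214, 211 and 224 CPM. The female control and the female Pcp2-cre mouse, at 222 and 224 CPM, were the mice in which the genotypes overlapped. The log2 fold change was -0.14 (95% confidence interval -0.24 to -0.04) and the adjusted p 0.0903 in the edgeR QL test. It was 0.00427 without control 3 and 0.00396 in the males alone, at a log2 fold change of -0.21. The male controls are controls 1 and 2, the 2 libraries set apart by choroid plexus genes. In these fits sex and that difference cannot be told apart, nor can they in a test of sex, as mouse 3 is the only female of each genotype. Without controls 1 and 2 together, which leaves only control 3, the log2 fold change was -0.04. The difference between the sexes in the genotype effect was itself tested with an interaction term, which had a p of 0.0122 and an adjusted p of 0.798 in edgeR, and none of the 8 genes had an adjusted p under 0.05 for it. In FPKM all 3 Pcp2-cre mice, at 22.6, 22.2 and 22.0, lay below all 3 controls, at 26.7, 25.5 and 23.3. In CPM 11.4% of all genes tested lay so. With limma the adjusted p of *Scn1a* was 0.206 on log2(FPKM + 1) and 0.212 on log2(FPKM + 0.1).

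*Scn2a* (ENSMUSG00000075318, chromosome 2, 65451102 to 65597795, forward strand) encodes the alpha subunit typical of unmyelinated axons and of granule cells. It had 505, 463 and 482 CPM in control mice and 478, 474 and 498 CPM in Pcp2-cre mice, and the groups overlapped. The 95% confidence interval of its log2 fold change ran from -0.09 to 0.08 (adjusted p = 0.997, edgeR QL test), which leaves room for a change of up to about 6% in either direction. The difference between *Scn8a* and *Scn2a* on the log2 CPM scale, taken within each mouse, was -0.17 ± 0.0237 in control and -0.31 ± 0.0304 in Pcp2-cre mice (SD, n = 3 each). The Pcp2-cre values were all below the control values, with p = 0.10 in the two-sided exact permutation test, the smallest that 3 mice against 3 can give, and 0.167 after adjustment over the 5 pairs compared. On the log2(FPKM + 1) scale the difference between the genotypes was -0.085 in place of -0.14, with an exact permutation p of 0.5. For *Scn8a* minus *Scn1a* the same difference was 0.86 in control and 0.85 in Pcp2-cre mice, and the groups overlapped (exact permutation p = 1).

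**Figure D1:**
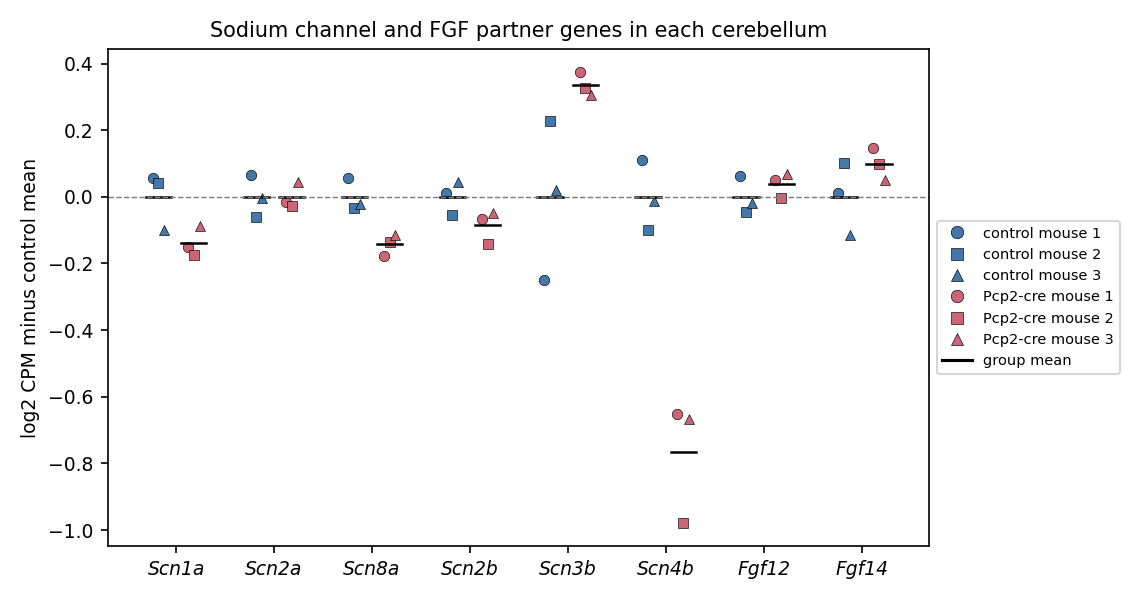
Log2 CPM of each of the 8 genes in each cerebellum, minus the mean of the 3 controls of that gene. Blue marks are control and red marks Pcp2-cre mice, circles, squares and triangles are mice 1, 2 and 3, and bars are group means. *Scn4b* in the 3 Pcp2-cre mice lies between -0.98 and -0.65, and no other gene lies below -0.25 in any mouse.

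Among the beta subunits *Scn4b* fell, and *Scn2b* and *Scn3b* did not pass the test. *Scn4b* encodes the beta subunit whose intracellular tail is known as a blocking particle of the resurgent current. Control mice 1, 2 and 3 had 826, 598 and 954 counts, or 103, 89.0 and 94.5 CPM. Pcp2-cre mice 1, 2 and 3 had 460, 418 and 405 counts, or 60.6, 48.2 and 59.9 CPM. The genotypes were well apart, since the highest Pcp2-cre mouse did not come near the lowest control, and Pcp2-cre mouse 2 was the lowest. Means were 95.5 ± 7.06 CPM in controls and 56.3 ± 6.94 CPM in Pcp2-cre mice (SD, n = 3 each). In log2 terms the change was -0.78 (standard error 0.0712, 95% confidence interval -0.92 to -0.63, adjusted p = 1.10e-07 in the edgeR QL test), a change of -41.6% with an interval of -47.3% to -35.2%. In rank by p it stood at 114 of 16961 genes. In FPKM it had 16.7, 14.9 and 15.2 in control and 9.92, 8.80 and 10.01 in Pcp2-cre mice, again without overlap. At the study's thresholds it was called lower in each of 17 alternative fits, with log2 fold changes of -0.84 to -0.65 and no adjusted p above 0.0115, controls 1 and 2 left out together among them (-0.76). It was not called when the log2 threshold was raised to 1.

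*Scn2b* encodes a beta subunit that, like that of *Scn4b*, is bound to the alpha subunit by a disulfide bond. Its control mice had 477, 456 and 488 CPM and its Pcp2-cre mice 453, 429 and 458 CPM. Pcp2-cre mouse 3 lay above control 2, so the groups overlapped. The log2 fold change was -0.09 (95% confidence interval -0.17 to -0.0023, adjusted p = 0.260 in the edgeR QL test). *Scn4b* minus *Scn2b*, taken within each mouse on the log2 CPM scale, was -2.31 ± 0.0879 in control and -2.99 ± 0.136 in Pcp2-cre mice (SD, n = 3 each), a difference of -0.68 between the genotypes. The Pcp2-cre values were all below the control values (exact permutation p = 0.10, the smallest possible, and 0.167 adjusted over 5 pairs).

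*Scn3b* (ENSMUSG00000049281, chromosome 9, 40179378 to 40203052, forward strand) encodes a beta subunit that binds alpha subunits without a covalent bond and is best known from the embryonic brain. It was the least abundant of the 8 genes, with 26, 31 and 40 counts in control mice and 39, 43 and 33 counts in Pcp2-cre mice. These came to 3.24, 4.62 and 3.96 CPM and to 5.14, 4.96 and 4.88 CPM. In CPM each Pcp2-cre mouse exceeded the highest control, as for 10.8% of all genes tested. Its log2 fold change of 0.35 had a 95% confidence interval of -0.07 to 0.77 and an adjusted p of 0.387 in the edgeR QL test. In FPKM the groups overlapped, and the direction turned (log2 fold change -0.027 on the log2(FPKM + 1) scale). No difference in *Scn3b* was detected, and the interval leaves room for a rise of up to 0.77. *Scn3b* minus *Scn2b* within each mouse was higher by 0.42 in Pcp2-cre mice on the log2 CPM scale, without overlap (exact permutation p = 0.10, 0.167 adjusted over 5 pairs), and by 0.049 on the log2(FPKM + 1) scale (exact permutation p = 0.5).

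Neither of the 2 fibroblast growth factor homologous factors passed the test. *Fgf12* (ENSMUSG00000022523, chromosome 16, 27975753 to 28571820, reverse strand) had 105, 97.1 and 99.0 CPM in control mice and 104, 99.96 and 105 CPM in Pcp2-cre mice. The groups overlapped, and the log2 fold change was 0.04 (95% confidence interval -0.06 to 0.13, adjusted p = 0.760 in the edgeR QL test). *Fgf14* (ENSMUSG00000025551, chromosome 14, 124211258 to 124914539, reverse strand) is needed for spontaneous firing of Purkinje cells and is mutated in an inherited ataxia. Control mice had 69.4, 73.9 and 63.5 CPM and Pcp2-cre mice 76.1, 73.6 and 71.2 CPM. The highest and lowest Pcp2-cre mice lay either side of control 2, and the log2 fold change was 0.11 (95% confidence interval -0.02 to 0.23, adjusted p = 0.365 in the same test). It was 0.043 without control 3 and 0.15 without control 2. Of the exon bases annotated for *Fgf14*, 51.5% overlap exons of *Itgbl1* on the opposite strand. Whether the counting used strand is not given in the sources used here, so reads of these 2 genes may not be separable. *Itgbl1* had 26.7 CPM in controls and 29.6 CPM in Pcp2-cre mice (log2 fold change 0.16, adjusted p = 0.377 in edgeR). *Fgf14* minus *Fgf12* within each mouse was -0.54 ± 0.13 in control and -0.48 ± 0.0679 in Pcp2-cre mice on the log2 CPM scale (SD, n = 3 each, exact permutation p = 0.60, 0.75 adjusted over 5 pairs).

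Of the 10 other genes of the channel family, 5 passed the filter on low counts. Of these 1, *Fgf11*, had an adjusted p no higher than 0.05, against 7.74% of all genes tested. *Fgf11* (ENSMUSG00000042826, chromosome 11, 69686894 to 69692683, reverse strand) encodes another homologous factor. Control mice had 66.7, 68.5 and 67.3 CPM and Pcp2-cre mice 48.6, 47.7 and 53.1 CPM. The control mice lay close together, and every Pcp2-cre mouse lay below them, in CPM as in FPKM. At -0.44, its log2 fold change (standard error 0.0596, 95% confidence interval -0.57 to -0.32, adjusted p = 2.40e-05 in the edgeR QL test) missed the study's fold threshold. *Fgf13*, *Scn3a* and *Scn9a* had log2 fold changes of 0.14, 0.27 and -0.17 and adjusted p-values of 0.532, 0.646 and 0.676 in the same test. The filter left out *Scn4a*, the alpha subunit of skeletal muscle, with at most 2 counts in a mouse. It also left out *Scn7a*, with 3 to 10 counts, and *Scn10a* and *Scn11a*, alpha subunits of sensory neurons, with 0 counts in every mouse and 1 to 11 counts.

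**Figure D2:**
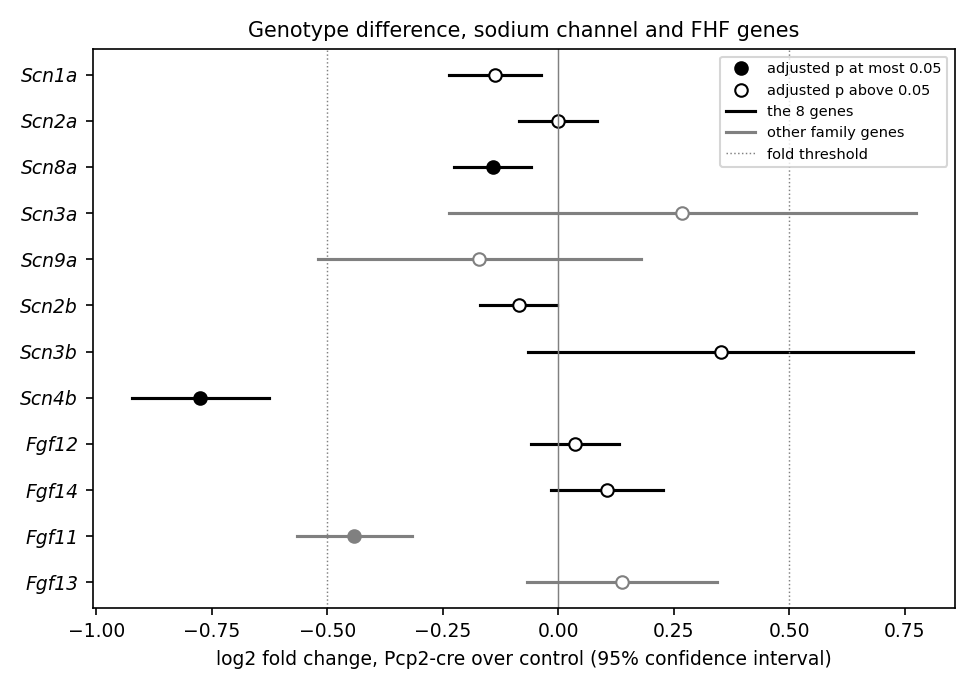
Log2 fold change, Pcp2-cre over control, of 12 tested sodium channel and homologous factor genes, with 95% confidence intervals. Black marks are the 8 genes described and grey marks other family genes, filled circles have an adjusted p no higher than 0.05, and dotted lines mark the fold threshold of 0.5. The interval of *Scn4b*, -0.92 to -0.63, lies wholly beyond the threshold, and that of *Fgf11*, -0.57 to -0.32, crosses it.

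Levels of different genes were compared per exon length, in FPKM, and so rest on how that table assigned reads. In control cerebella the order of the 8 genes was *Scn2b* (95.1 ± 2.17), *Scn2a* (61.3 ± 3.21), *Scn8a* (40.7 ± 3.33), *Fgf12* (40.5 ± 1.31), *Scn1a* (25.2 ± 1.71), *Fgf14* (15.7 ± 1.43), *Scn4b* (15.6 ± 0.939) and *Scn3b* (1.004 ± 0.0826), as FPKM mean ± SD of 3 mice. Neighbours in this order did not overlap, except *Scn8a* with *Fgf12* and *Fgf14* with *Scn4b*. In Pcp2-cre cerebella *Fgf12* (42.4 ± 2.38) and *Scn8a* (38.1 ± 4.94) overlapped and stood in the other order. *Fgf14* (17.1 ± 1.33) and *Scn4b* (9.58 ± 0.678), level with each other in controls, no longer overlapped. The FPKM ratio of *Scn2b* to *Scn4b* was 6.11 ± 0.343 in control and 9.45 ± 0.729 in Pcp2-cre mice (SD, n = 3 each).

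Shares of the summed FPKM were compared within the alpha subunits and within the homologous factors. Of the 10 alpha subunit genes, *Scn2a* made up 48.0% ± 0.984 in control and 49.9% ± 1.44 in Pcp2-cre mice, *Scn8a* 31.9% ± 2.14 and 31.2% ± 2.35, and *Scn1a* 19.7% ± 1.18 and 18.3% ± 1.01 (SD, n = 3 each). The groups overlapped for each of these 3. Of the 4 homologous factor genes, *Fgf11* made up 21.7% ± 1.42 in control and 16.1% ± 0.103 in Pcp2-cre mice, without overlap, *Fgf12* 47.9% and 50.1%, and *Fgf14* 18.5% and 20.1%. The summed FPKM of both families overlapped between the genotypes. It was 128 ± 5.88 and 122 ± 6.39 for the alpha subunits (exact permutation p = 0.3) and 84.7 ± 1.47 and 84.7 ± 4.04 for the homologous factors (p = 1), as mean ± SD of 3 control and 3 Pcp2-cre mice.

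**Figure D3:**
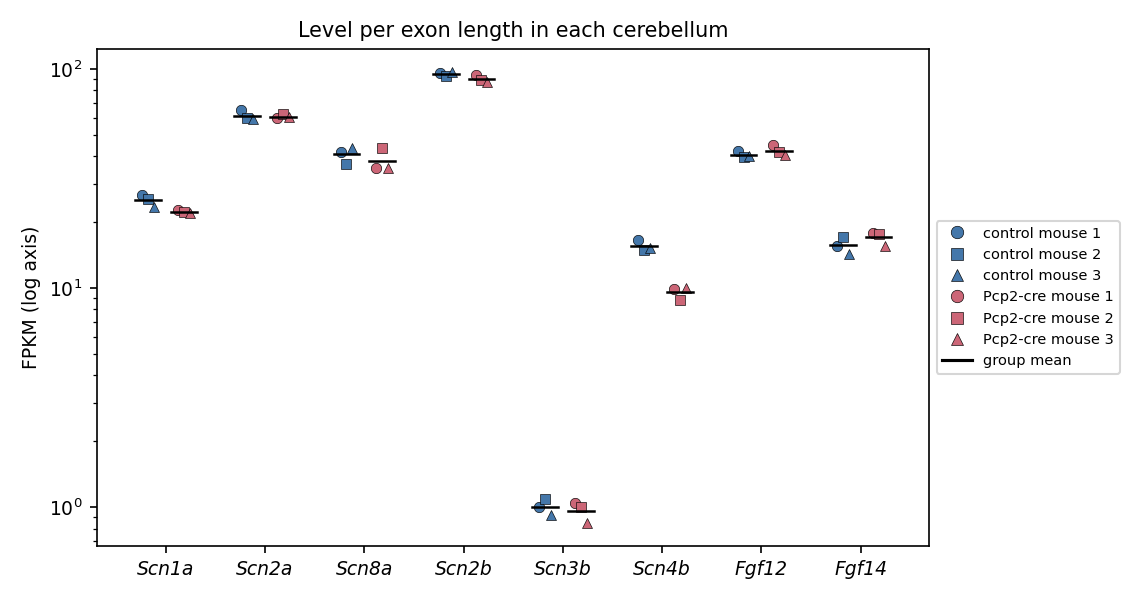
FPKM of each of the 8 genes in each cerebellum, on a log axis. Blue marks are control and red marks Pcp2-cre mice, circles, squares and triangles are mice 1, 2 and 3, and bars are group means. *Scn2b* is highest, at a mean of 95.1 in control mice, *Scn3b* is lowest, at 1.004 in control mice, and *Scn4b* moves from 15.6 in control to 9.58 in Pcp2-cre mice.

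The 8 genes were also set against the 10 Purkinje cell genes, *Calb1*, *Pcp2*, *Car8* and *Itpr1* among them, whose mean log2 CPM, relative to the control mean, was -0.63, -0.82 and -0.75 in Pcp2-cre mice 1, 2 and 3. In each mouse this list's mean was subtracted from the log2 CPM of the gene. For *Scn4b* the result was -1.87 ± 0.123 in control and -1.91 ± 0.119 in Pcp2-cre mice (SD, n = 3 each). The groups overlapped, the difference was -0.04, and the exact permutation p was 0.70, which does not show that the changes were equal. This difference was smaller than the SD of either group. Pcp2-cre mouse 2 was the lowest of the 6 mice both in *Scn4b* and in the list. Among the controls the 2 did not go together. Relative to the control mean, control 2 was the lowest control in *Scn4b* (-0.099) and the highest in the list (0.041). The 10 genes of the list had log2 fold changes from -0.98 to -0.40, so the difference for *Scn4b* depends on which genes were averaged. Because the list itself was lower by 0.73 on average in Pcp2-cre mice, a gene with no change would lie 0.73 higher relative to it. Over all genes tested the median difference was 0.73, with quartiles of 0.64 and 0.83, and 91.3% of genes lay higher in every Pcp2-cre mouse without overlap. The other 7 of the 8 genes did so too. Their differences were 0.59 for *Scn1a*, 0.73 for *Scn2a*, 0.59 for *Scn8a*, 0.65 for *Scn2b*, 1.07 for *Scn3b*, 0.77 for *Fgf12* and 0.83 for *Fgf14*, each with an exact permutation p of 0.10, the smallest possible, and 0.114 adjusted over the 8 genes. The part of Purkinje cell number in the fall of *Scn4b* was not tested.

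**Figure D4:**
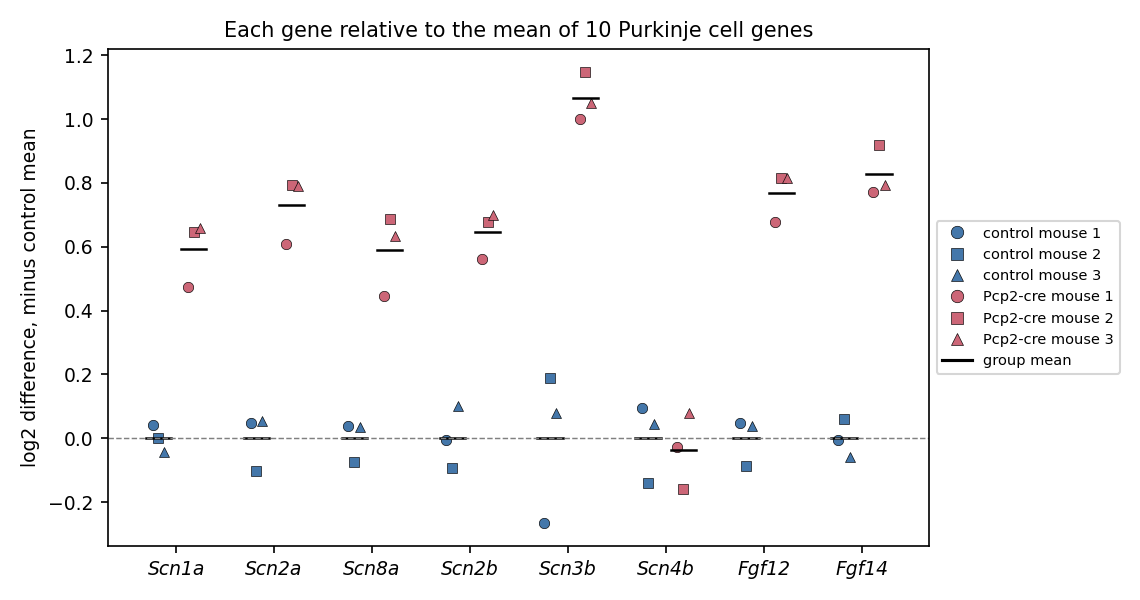
Log2 CPM of each of the 8 genes minus the mean log2 CPM of 10 Purkinje cell genes in the same cerebellum, relative to the control mean. Blue marks are control and red marks Pcp2-cre mice, circles, squares and triangles are mice 1, 2 and 3, and bars are group means. *Scn4b* overlaps between the genotypes at a difference of -0.04, and the other 7 genes are higher in all 3 Pcp2-cre mice, by 0.59 to 1.07, as 91.3% of all genes tested are, since a gene with no change would lie at 0.73.

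The tested genes whose pattern over the 6 mice was most like that of *Scn4b* were *Tmtc1*, *Ptprr* and *Atp2a3*, out of 16960 compared. Likeness was the root-mean-square difference of log2 CPM, each gene relative to its control mean, and it was 0.0595, 0.0598 and 0.0603 for the 3 genes. This measure takes in the difference between the genotypes. Their log2 fold changes, -0.79, -0.80 and -0.76, were therefore bound to lie near the -0.78 of *Scn4b*.

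Genes that hold, regulate or share work with sodium channels had smaller log2 fold changes than *Scn4b*, except that *Fxyd7*, at 0.74, came close to it in size. Of 38 such genes in 4 lists, all tested, 4 fell and 3 rose at an adjusted p no higher than 0.05 in the edgeR QL test. Over all genes tested, 4.75% fell and 2.99% rose. Of the 38 genes 1, *Fxyd7*, was called higher at the study's thresholds, against 1.37% of all genes tested. None was called lower, against 1.79%. The groups did not overlap for 17 of the 38, against 22.2% of all genes tested. Among the 15 genes of the axon initial segment and node of Ranvier, *Ank2*, an ankyrin that anchors membrane proteins to spectrin, and *Nrcam*, a cell adhesion molecule, fell. *Ank2* had 1319, 1253 and 1241 CPM in controls and 1132, 1127 and 1124 CPM in Pcp2-cre mice (log2 fold change -0.17, adjusted p = 0.00152). *Nrcam* had 222, 205 and 222 CPM in controls and 199.8, 191 and 182 CPM in Pcp2-cre mice (log2 fold change -0.18, adjusted p = 0.0158). Both were without overlap, and the median log2 fold change of the list was -0.02, beside 0.0045 over all genes tested.

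Of the 5 genes of the sodium leak channel complex, which carries a voltage-independent inward current, *Unc79* fell and 4 did not pass the test. *Unc79* had 79.3, 72.7 and 79.3 CPM in controls and 63.5, 63.5 and 74.0 CPM in Pcp2-cre mice, and Pcp2-cre mouse 3 lay above control 2 (log2 fold change -0.21, adjusted p = 0.0343). The list's median was -0.12. Of the 8 genes of the sodium pump, which restores the sodium gradient, 3 rose and 1 fell, against 2.99% and 4.75% of all genes tested. The beta subunits *Atp1b2* and *Atp1b3* and the regulator *Fxyd7* were those that rose, each without overlap. *Atp1b2*, a beta subunit known from astrocytes, had 1035, 1035 and 1045 CPM in controls and 1177, 1187 and 1197 CPM in Pcp2-cre mice (log2 fold change 0.19, adjusted p = 2.72e-04). The 8 astrocyte genes went both ways. *Gfap* and *Aqp4* rose from 121.1 to 463 and from 333 to 473 CPM, *Slc1a3* and *Gdf10* fell from 1089 to 934 and from 164 to 138 CPM (genes chosen after their values were seen), and the median log2 fold change was 0.08. Their sum was 2791 to 2836 CPM in controls and 3158 to 3245 CPM in Pcp2-cre mice, and their part in the rise of *Atp1b2* was not tested. For *Atp1b3* the log2 fold change was 0.16 (adjusted p = 0.0145). *Fxyd7* rose from 40, 32 and 45 counts in control to 54, 68 and 60 counts in Pcp2-cre mice (log2 fold change 0.74, adjusted p = 0.00653). The median of the pump list was 0.08. None of the 10 channel regulators, calmodulin and casein kinase genes among them, passed the test, 3 of them were lower at an unadjusted p under 0.05 in edgeR, and their median was -0.03.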

How the data were processed

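Cerebellar mRNA of 6 mice, 3 per genotype, was sequenced as paired reads from poly A-enriched libraries. After trimming, the authors used STAR for alignment to GRCm39 and featureCounts and StringTie for counting on Gencode features. Tool versions, the annotation release, whether strand was used and how multi-mapping reads were handled are not given in the sources used here. The deposited tables, 1 of raw counts (53746 genes) and 1 of FPKM (55005 genes), were made by the authors without pooling replicates. The FPKM are not the counts over 1 length per gene, and which of the counting tools gave them is not stated. Groups came from the labels.

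Counts were tested in R 4.3.3 by the quasi-likelihood (QL) test of edgeR 4.0.16 after filterByExpr and TMM, with Benjamini-Hochberg adjustment over 16961 genes. Alternatives covered the 8 genes, their ratios and their differences from the Purkinje cell list. Standard errors are the log2 fold change over the square root of F. CPM on the log2 scale had a prior count of 2. Family ratios and differences from the Purkinje cell list used two-sided exact permutation tests. FPKM was tested with limma 3.58.1 on log2(FPKM + 1) and log2(FPKM + 0.1). Between libraries of 1 genotype the chi-square per gene was 1.38 to 3.62, more than sampling noise gives, so each was counted. Exons and sequence came from Gencode M39 and GRCm39. *Nalf1* and *Nalf2* were matched by gene identifier. Scripts were tested on simulated data.

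The named genes are the 8 genes, their family, partner genes with an adjusted p no higher than 0.05 and the 3 nearest patterns of each called gene. At most 2 genes per cell type list were to be named, and more were named from the Purkinje cell and astrocyte lists. *Sting1* and the overlapping genes *Itgbl1* and *Gm39327* were named besides. Values of a few family and list genes are left out of the text. The 8 genes and the lists were chosen with earlier results of these data known, the fall of *Scn4b* among them. Alternatives were DESeq2 1.42.0, DESeq2 size factors, edgeR's likelihood ratio test, no filter, a minimum of 10 counts per mouse, a block for replicate number, sex as a covariate, males alone, FPKM, other fold thresholds and each mouse left out in turn. Controls 1 and 2 left out together was added after the data had been seen, and it leaves a single control mouse.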

Additional observations from a re-analysis of the deposited data

How the results depend on the processing

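At the study's thresholds *Scn4b* was called lower in each of 17 alternative fits, and with each mouse left out its log2 fold change was -0.84 to -0.67. No gene of the 8 was called higher in any. The number called lower, 1, became 2 with no fold threshold and 0 when the log2 threshold was 1. The number at an adjusted p no higher than 0.05, 2, was 1 with the likelihood ratio test and with FPKM under both pseudocounts. It was 3 with no filter on low counts and in the males alone, and 1 to 3 with each mouse left out. It was 1 without control 1, Pcp2-cre mouse 1 or Pcp2-cre mouse 2. *Scn2a*, near 0, turned positive with the replicate block (0.00041) and without controls 1 and 2 together (0.0030), and its range with each mouse left out was -0.032 to 0.030. It was 0.030, 0.0053 and 0.012 without control 1, Pcp2-cre mouse 1 and Pcp2-cre mouse 2. *Scn3b* turned to -0.027 and -0.051 with FPKM under the pseudocounts of 1 and 0.1. *Scn1a* was -0.04 without controls 1 and 2 together and had an adjusted p of 0.0384 with no filter on low counts. *Fgf14* was 0.21 without controls 1 and 2 together, which leaves only control 3, and 0.043 to 0.15 with each mouse left out. *Scn8a* minus *Scn2a* was -0.085 and *Scn3b* minus *Scn2b* 0.049 with FPKM, both with an exact permutation p of 0.5. *Scn4b* minus the Purkinje cell list turned positive with FPKM (0.12), without control 1 (0.012) and without Pcp2-cre mouse 2 (0.026), with -0.106 to 0.026 as its range over mice left out, and *Scn8a* minus *Scn1a* with FPKM (0.069), without control 3 (0.034) and without Pcp2-cre mice 1 (0.0065) and 3 (0.0059), with -0.044 to 0.034 as its range. The cause was not tested. Over all genes, 304 lower and 233 higher calls became 231 and 150 with DESeq2, 155 and 126 with log2(FPKM + 1) and 167 and 144 with log2(FPKM + 0.1).

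The replicate numbers share sex, but deviations of same-numbered mice correlated at 0.0408, 0.0565 and 0.166, and control 1 correlated best with Pcp2-cre mouse 2, so the numbers were not taken as pairs. With the replicate block 319 genes were lower and 229 higher, *Scn4b* had a log2 fold change of -0.77 and *Scn8a* an adjusted p of 0.0392. With 26 to 43 counts per mouse, *Scn3b* had the fewest counts of the 8 genes and the widest interval. With 3 mice against 3, no permutation test could go below 0.10.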
